A study of Mus musculus with 4 samples.

Results

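Neutrophil granule genes encode the proteins that neutrophils pack into their granules while they mature in bone marrow. The 8 genes described here were taken by name as a known group, with no threshold on their values, though earlier results of these data were known when they were chosen. They are 4 genes of primary granules (Mpo, Elane, Prtn3 and Ctsg) and 4 genes of granules made later (Ltf, Ngp, Camp and Chil3). All 8 were found among the 22180 genes measured, each by 1 probe set, where a gene with several probe sets was represented by the 1 with the highest mean over the arrays. Total RNA of mouse synovium, the lining of the joint, was measured on 4 Affymetrix MoGene 2.0 ST arrays, with 1 pool of mice on each. Arthritic synovium came from 2 pools of 10 mice on day 10 of serum transfer arthritis, a model in which serum with autoantibodies sets off joint inflammation, at the time the labels call the peak of inflammation. Nonarthritic synovium came from 2 pools of 3 mice, labelled day 0. All host mice were male C57BL/6J aged 12 weeks, and the tissue was taken around the ankle (tibiotalar) joint. Arthritic mice were injected with 150 microlitres of arthritogenic serum into the abdomen on days 0, 2 and 7, and nonarthritic mice with the same volume of saline on those days, per the labels' protocols. The labels give a serum source, strain K/BxN, for the nonarthritic pools too, which conflicts with saline. The label of day 0 for these pools also conflicts with injections on days 2 and 7, so the day of tissue collection is unclear. The groups differ in labelled day and pool size as well as in arthritis, and these cannot be told apart.

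Granule genes are switched on in a fixed order as a neutrophil develops, and the messages are largely shut down before the cell leaves the marrow, while the proteins persist in the granules. Primary (azurophil) granules form first, in promyelocytes, and hold myeloperoxidase and the serine proteases. Specific granules form next, in myelocytes and metamyelocytes, gelatinase granules form later still, and secretory vesicles form last. For this reason blood and tissue neutrophils are rich in granule proteins but carry little mRNA of the early ones. The comparison addressed here is whether mRNA of early and of later granule genes differed between arthritic and nonarthritic synovium.

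Early and later granule genes are switched on by sets of factors that differ only in part, and the upstream sequences are shown first. The RefSeq promoter table of build GRCm38.p6 held 1 promoter for each of the 8 genes, and the 250 bases before the start of the gene were searched on both strands for the letters TTNNGNAA, a loose form of the site of C/EBP factors, and GAGGAA, the core of the site of PU.1. C/EBP epsilon drives specific granule genes, and PU.1 is the general myeloid factor. The letters searched do not tell one C/EBP factor from another. The C/EBP letters were found in 3 of the 4 later genes (Ltf, Ngp and Chil3) and in 0 of the 4 primary genes, and 36.8% of all 32851 promoters in the table hold them. The PU.1 letters were found in all 4 primary genes and in 1 later gene, Ltf, and 23.3% of all promoters hold them. No match of one motif overlapped a match of the other. The letters TGTGGT of the Runx site were found in 1 gene, Ctsg (14% of all promoters), and the letters AACNG of the Myb site in all 8 (74.2%). A match is a run of letters and not a shown binding site, and a window without one says nothing of the factor. Shown are the neighbouring protease genes Prtn3 and Elane for the primary genes, and Ltf and Ngp, whose arthritic pools both lay above both nonarthritic pools, for the later genes. Each runs 5′ to 3′ on the strand of the gene and ends at the base before its start, and capitals mark the matches to either motif.
Prtn3, chr10:79879417-79879666, plus strand: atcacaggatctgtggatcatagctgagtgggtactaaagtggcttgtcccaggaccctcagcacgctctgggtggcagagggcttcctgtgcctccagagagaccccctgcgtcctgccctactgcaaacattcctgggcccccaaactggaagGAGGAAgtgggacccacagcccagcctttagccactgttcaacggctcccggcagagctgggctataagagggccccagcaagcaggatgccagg
Elane, chr10:79886062-79886311, plus strand: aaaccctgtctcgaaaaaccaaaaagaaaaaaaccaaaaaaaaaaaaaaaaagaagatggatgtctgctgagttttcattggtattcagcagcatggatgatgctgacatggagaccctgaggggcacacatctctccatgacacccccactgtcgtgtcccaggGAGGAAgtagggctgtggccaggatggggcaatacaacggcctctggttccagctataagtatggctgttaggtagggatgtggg
Ltf, chr9:111019042-111019291, plus strand: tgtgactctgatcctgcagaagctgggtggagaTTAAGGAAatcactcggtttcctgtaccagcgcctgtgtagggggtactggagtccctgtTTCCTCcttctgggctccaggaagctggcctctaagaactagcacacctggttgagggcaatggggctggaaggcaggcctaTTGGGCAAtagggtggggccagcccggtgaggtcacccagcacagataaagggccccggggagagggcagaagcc
Ngp, chr9:110419558-110419807, plus strand: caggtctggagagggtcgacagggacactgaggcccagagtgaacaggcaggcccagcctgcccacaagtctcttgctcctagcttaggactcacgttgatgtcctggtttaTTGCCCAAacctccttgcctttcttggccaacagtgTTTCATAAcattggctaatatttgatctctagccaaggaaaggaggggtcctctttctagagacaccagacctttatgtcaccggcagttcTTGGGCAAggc
Prtn3 and Elane each have 1 marked match, to the PU.1 letters, which begins 95 bases before the start in Prtn3 and 85 before it in Elane. Ngp has 3 matches, all to the C/EBP letters, beginning 138, 102 and 11 bases before the start. In Ltf the C/EBP letters begin 217 and 75 bases before the start, and the match between them, on the opposite strand, is to the PU.1 letters.

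Values are the log2 signals the authors deposited, and a difference of 1 is a doubling. Over 41345 probe sets the medians were 6.96 and 7.05 in arthritic pools 1 and 2 and 7.05 and 7.15 in nonarthritic pools 1 and 2. Of 8 synovial fibroblast markers, 5 rose, among them Cdh11 (log2 fold change 1.70) and Vcam1 (1.445), and the lining genes Clic5 (-2.48) and Cd55 (-1.44) fell. The remaining one, the lubricin gene Prg4 of the lining, read 13.27 and 13.52 in the arthritic and 13.66 and 13.66 in the nonarthritic pools and was not called. With single pools left out, 0 to 3 of these markers rose and 0 to 1 fell. No detection calls were used, so the 1105 olfactory receptor genes, most of which are silent outside the nose, serve as a rough scale of low signal. Their median was 4.60 and 4.68 in arthritic pools 1 and 2 and 4.68 and 5.15 in nonarthritic pools 1 and 2, so nonarthritic pool 2 stood above the other arrays by this measure. Between the groups they had a median log2 fold change of -0.19, against 0.005 for all genes. Of the 8 granule genes, Prtn3 and Chil3 had a mean signal above the 95th percentile of the olfactory receptor genes, which was 6.98, and the other 6 did not. Signals this low were not shown to be above background, and fold changes there understate any change in RNA.

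**Figure D1:**
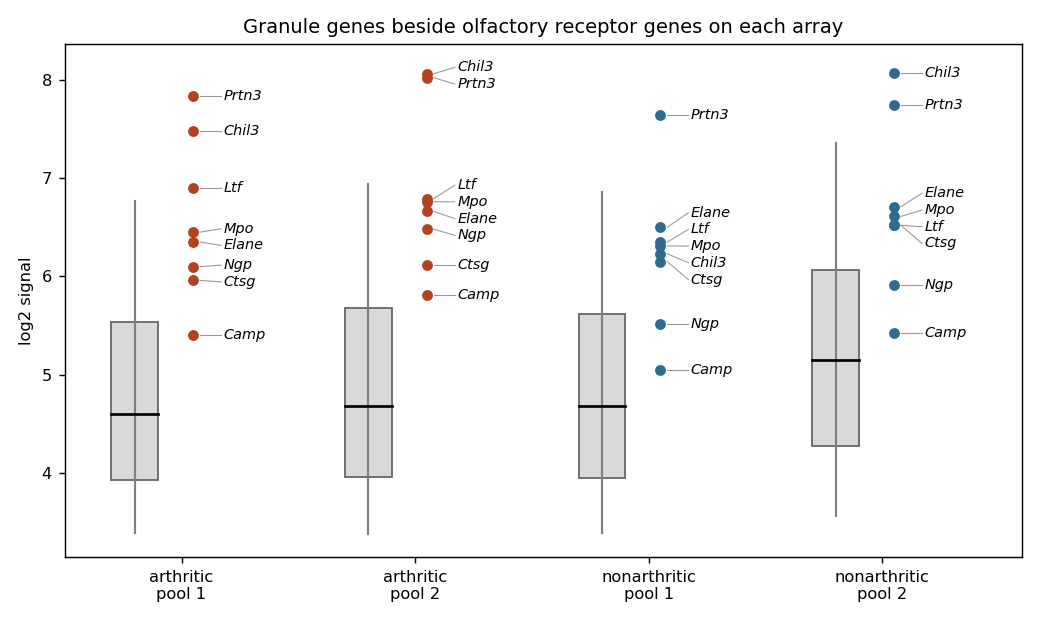
Log2 signal of the 8 granule genes (points) on each of the 4 arrays, beside the 1105 olfactory receptor genes (box: 25th to 75th percentile with the median, line: 5th to 95th percentile). Prtn3 lies above the line on every array, Chil3 on all but nonarthritic pool 1, and Ltf on arthritic pool 1 only. Camp lies within the box or, on arthritic pool 2, just above it.

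None of the 8 granule genes rose or fell in arthritic synovium. The test was limma across all 22180 genes with Benjamini-Hochberg adjustment, and rises and falls were called at an adjusted p under 0.05. By this rule 15.3% of all genes were called, 8.72% as rises and 6.62% as falls, and beside that share a count of 0 among 8 does not set these genes apart. At an unadjusted p under 0.05 there were 2, Ltf and Ngp. The median log2 fold change of the 8 was 0.30, with a range of -0.30 to 0.62, and 6 of the 8 were above 0. Both arthritic pools lay above both nonarthritic pools for 3 of the 8 (Prtn3, Ltf and Ngp) and below them for 1 (Ctsg), as they did for 30.2% and 26.1% of all genes. RNA was taken from whole tissue, so fewer cells of a type and less RNA per cell cannot be told apart. The design text describes the pools as biological replicates, so the spread behind each p is that between pools, not between mice.

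**Figure D2:**
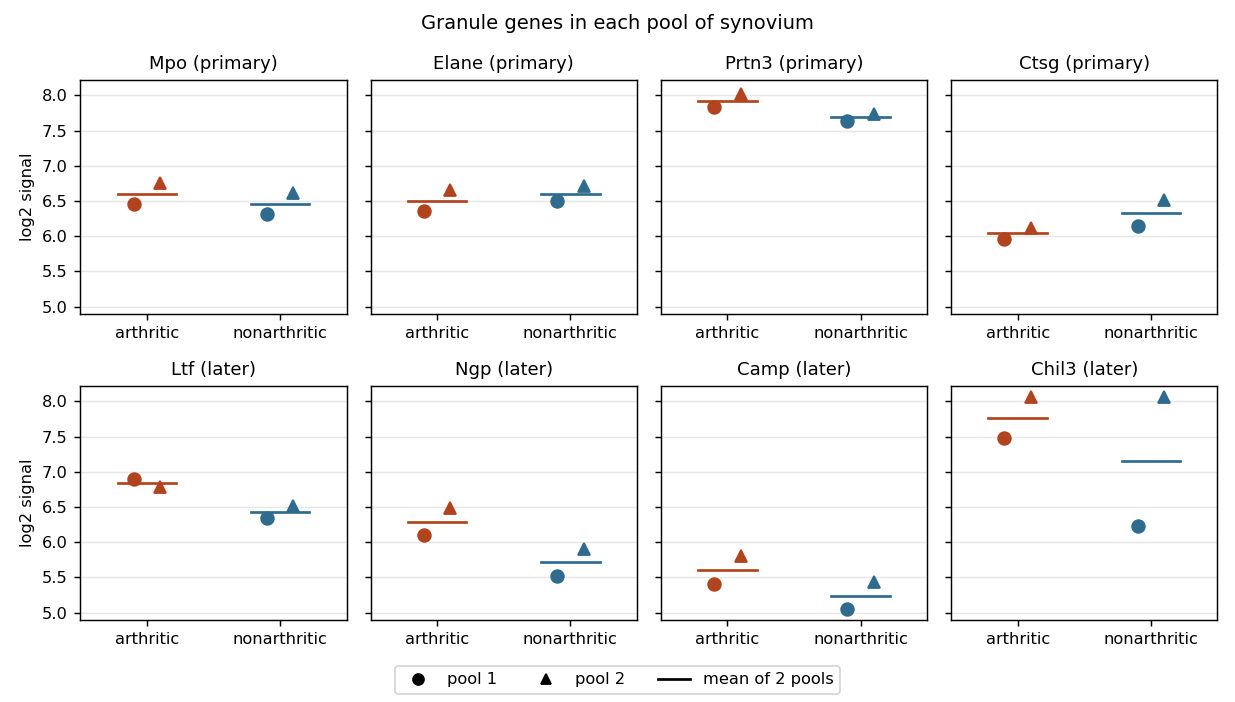
Log2 signal of each granule gene in pool 1 (circle) and pool 2 (triangle) of arthritic and nonarthritic synovium, with lines at the means. Within-group spread is largest for Chil3, whose nonarthritic pools read 6.23 and 8.07, and the groups are apart for Prtn3, Ctsg, Ltf and Ngp.

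The 4 primary granule genes had a median log2 fold change of 0.02. Mpo, which encodes myeloperoxidase, the enzyme that makes hypochlorous acid, read 6.45 and 6.76 in arthritic pools 1 and 2, against 6.31 and 6.61 in nonarthritic pools 1 and 2. The groups overlapped, and the log2 fold change was 0.145 ± 0.19 (SE; 95% interval -0.29 to 0.58; limma adjusted p = 0.68). Elane, neutrophil elastase, read 6.35 and 6.66 in the arthritic pools and 6.50 and 6.71 in the nonarthritic pools. Its groups also overlapped, with a log2 fold change of -0.10 ± 0.18 (interval -0.51 to 0.31; limma adjusted p = 0.777). Prtn3, proteinase 3, lies next to Elane on chromosome 10. It read 7.83 and 8.02 in the arthritic pools and 7.64 and 7.74 in the nonarthritic pools. Both arthritic pools were the higher ones, without a call (0.235 ± 0.16; interval -0.14 to 0.61; limma adjusted p = 0.395). Ctsg, the serine protease cathepsin G, read 5.96 and 6.12 in the arthritic pools, against 6.15 and 6.52 in the nonarthritic pools. It was the only one of the 8 genes with both arthritic pools below both nonarthritic pools (-0.295 ± 0.18; interval -0.72 to 0.13; limma adjusted p = 0.341). Upper interval bounds of the 4 genes ran up to 0.61, a fold of 1.52 for Prtn3. These are bounds on array signal, which for Mpo, Elane and Ctsg was not shown to be above background.

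The 4 later granule genes had a median log2 fold change of 0.49, and all 4 were above 0. Ltf, lactoferrin, the iron-binding protein of specific granules, read 6.90 and 6.79 in arthritic pools 1 and 2, against 6.35 and 6.52 in nonarthritic pools 1 and 2. The groups were apart, and the fold was 1.33 (log2 0.41 ± 0.16 SE; 95% interval 0.04 to 0.78; limma adjusted p = 0.133). Ngp, neutrophilic granule protein, a relative of the cathelicidins, read 6.10 and 6.48 in the arthritic pools and 5.52 and 5.91 in the nonarthritic pools. These groups did not overlap either, with a fold of 1.49 (log2 0.575 ± 0.20; interval 0.10 to 1.05; limma adjusted p = 0.103). Its call depended on scaling: with each array centred on its median the log2 fold change was 0.67 (limma adjusted p = 0.0437), and with quantile normalization applied again it was 0.70 (adjusted p = 0.0346). Over all 11 other settings its adjusted p ran from 0.0346 to 0.454. Camp, the mouse cathelicidin, an antimicrobial peptide, read 5.41 and 5.81 in the arthritic pools, against 5.05 and 5.43 in the nonarthritic pools. The lower arthritic pool lay just under the higher nonarthritic pool, and the log2 fold change was 0.37 ± 0.21 (interval -0.10 to 0.84; limma adjusted p = 0.284). Camp sits lowest of the 8 against the olfactory receptor genes: 71.0% and 78.2% of those genes read lower than it in the arthritic pools, and 60.5% and 58.6% in the nonarthritic pools.

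Chil3, a chitinase-like protein also called Ym1, is made by neutrophil precursors, by some monocytes and by macrophages exposed to interleukin-4. It read 7.48 and 8.06 in arthritic pools 1 and 2, against 6.23 and 8.07 in nonarthritic pools 1 and 2. Nonarthritic pool 1 was lower than the other 3 arrays, and nonarthritic pool 2 was level with arthritic pool 2. The log2 fold change was 0.62 ± 0.51 (SE; 95% interval -0.55 to 1.79; limma adjusted p = 0.483), and leaving out nonarthritic pool 1 turned it to -0.30, while leaving out nonarthritic pool 2 gave 1.54. With each array centred on its olfactory receptor median, a setting chosen after seeing the data, it was 0.895 and called (limma adjusted p = 0.0455, against 0.0984 to 0.862 under the 11 planned settings). The close relative Chil4, whose gene is next to Chil3 on chromosome 3, read 4.73 and 4.54 in the arthritic and 5.01 and 5.08 in the nonarthritic pools, and probes of the pair may share sequence.

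The later genes differed from the primary genes in their mean log2 fold change by 0.50. The mean of the 4 primary genes was 6.65 and 6.89 in arthritic pools 1 and 2 and 6.65 and 6.90 in nonarthritic pools 1 and 2, which is a difference of -0.004 between the group means. For the 4 later genes it was 6.47 and 6.79 in the arthritic pools and 5.79 and 6.48 in the nonarthritic pools, a difference of 0.49. The signal ratio of later to primary genes within an array, on the log2 scale, was -0.18 and -0.10 in the arthritic and -0.86 and -0.41 in the nonarthritic pools, so both arthritic pools lay above both nonarthritic pools. Without Chil3 the ratio was -0.51 and -0.53 in the arthritic and -1.01 and -0.94 in the nonarthritic pools, a difference of 0.46 with less spread within each group. Leaving out single pools gave differences of 0.27 (without nonarthritic pool 1) to 0.72 (without nonarthritic pool 2) for the full lists. No p is given for this ratio, since it is a score over genes chosen with earlier results known. An exact permutation of 2 pools against 2 could not go below a 2-sided p of 0.333 in any case. Whether later and primary genes changed unequally was therefore not tested, and the ratio alone does not give which side changed. The mean signals of Ltf (6.64), Ngp (6.00) and Camp (5.425) were below the olfactory receptor 95th percentile of 6.98. The ratio without Chil3 thus rests on later genes that were not shown to be above background.

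Granule genes outside the 8 included genes that rose, in numbers that differed by granule class, and the differences between the classes were not tested. Of 9 other primary granule genes, 1 rose, 1 fell and 7 were not called (median log2 fold change 0.20). The count of rises was 2 with median centring, with an intensity trend in the variance prior and with dim genes left out. Gusb, a lysosomal glucuronidase found in many cells, had a log2 fold change of 0.80 ± 0.16 (limma adjusted p = 0.0144), and the lysozyme gene Lyz1 of -1.37 ± 0.16 (limma adjusted p = 0.00135). The rise was lost with any single pool left out and with all probe sets tested, and the fall without either arthritic pool. The second lysozyme gene, Lyz2, which macrophages express strongly, was at 0.23 and not called. Which cells gave the Lyz1 signal was not tested, and probes of both lysozyme genes may share sequence. Of 9 other specific granule genes, 4 rose and 0 fell (median 0.66). They were the collagenase Mmp8, which read 9.58 and 9.89 in arthritic pools 1 and 2 and 6.45 and 6.45 in nonarthritic pools 1 and 2 (log2 fold change 3.29 ± 0.17), the pentraxin Ptx3 (2.67), haptoglobin, Hp (1.42), and the surface protein Cd177 (0.92). Stromal cells and macrophages also make Ptx3 and Hp. The siderophore-binding protein Lcn2 read 10.20 and 10.38 in the arthritic and 9.64 and 9.79 in the nonarthritic pools and was not called (0.575 ± 0.16, limma adjusted p = 0.051). Olfm4, a marker of specific granules in a subset of neutrophils, was at 0.31 and not called.

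Of 9 measured gelatinase granule and vesicle genes, 7 rose and 0 fell, with a median log2 fold change of 1.06. Mmp9, the gelatinase itself, read 12.27 and 12.30 in arthritic pools 1 and 2, against 9.01 and 7.88 in nonarthritic pools 1 and 2 (log2 fold change 3.84 ± 0.32 SE; limma adjusted p = 0.000357). The formyl peptide receptor Fpr2 had a log2 fold change of 2.15 and the sheddase Adam8 of 1.95. Among the 2 not called were both subunits of the oxidase cytochrome, Cyba (0.55) and Cybb (-0.14). Macrophages also make Mmp9, Fpr2, Adam8 and these subunits. The count of 7 was 4 with the replicate block and with all probe sets tested, and 6 with quantile normalization again. With the intensity trend or with dim genes left out, the count was 8. It was 4 without arthritic pool 1, 0 without arthritic pool 2, 4 without nonarthritic pool 1 and 2 without nonarthritic pool 2. The count of 4 other specific granule genes was smaller with any single pool left out. It was 3 with all probe sets tested, and 5 with median or olfactory receptor centring and with the intensity trend. With dim genes left out, 6 of the 6 tested rose.

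**Figure D3:**
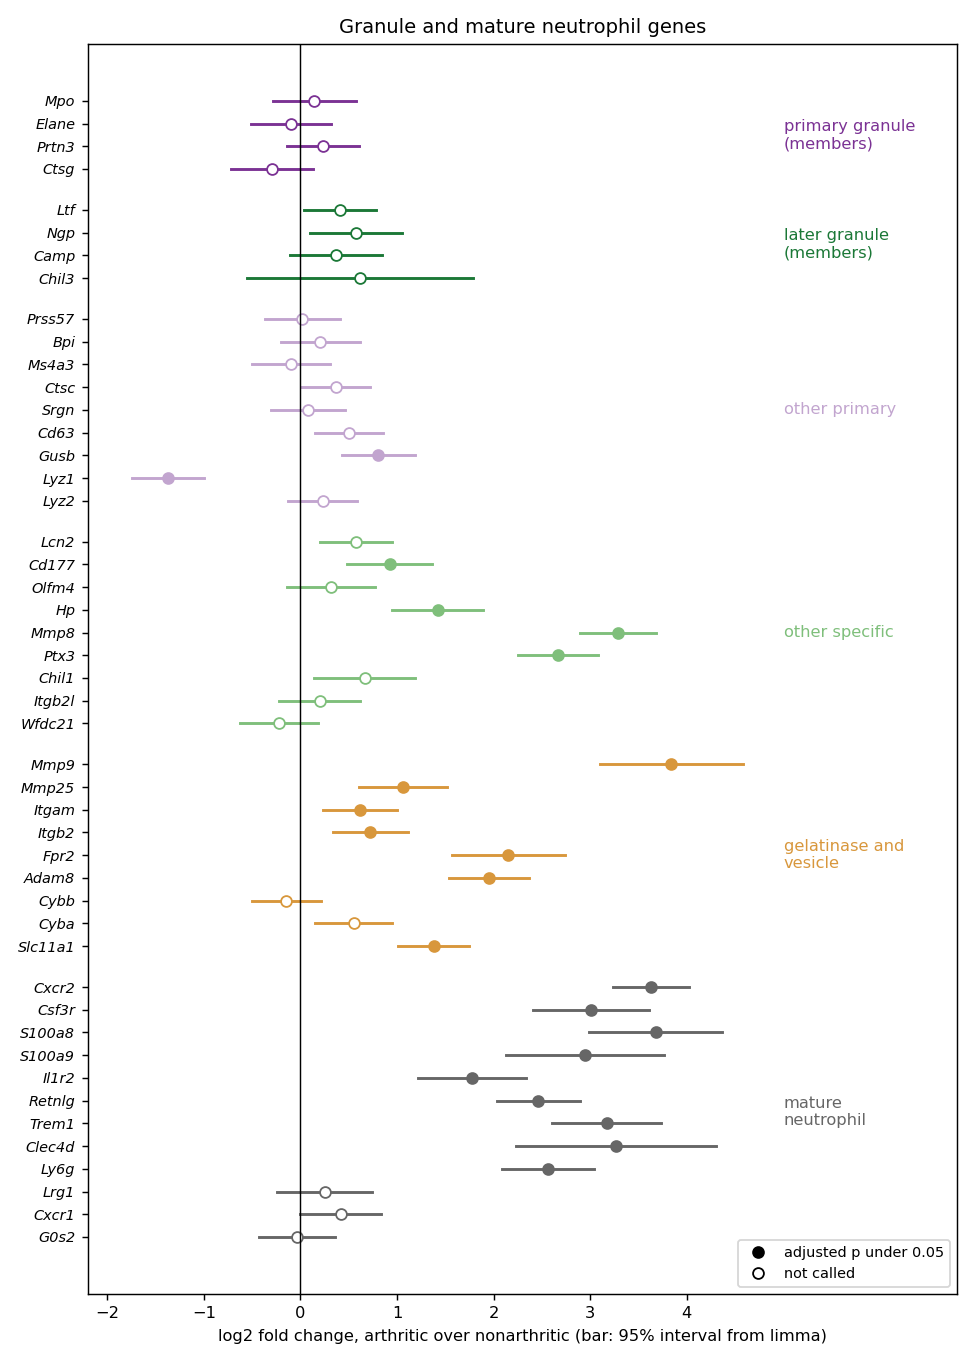
Log2 fold change of each gene, arthritic over nonarthritic synovium, with its 95% interval from limma; filled points passed an adjusted p of 0.05 and open points did not. All 8 members (top 2 groups) are open, while 4 of 9 other specific granule genes, 7 of 9 gelatinase granule and vesicle genes and 9 of 12 mature neutrophil genes are filled to the right of 0. Of all genes 15.3% were called. Of the 8 members, 6 had a mean signal not above the olfactory receptor 95th percentile, and differences between the classes were not tested.

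Mature neutrophil genes, which are on in blood and tissue neutrophils, rose in 9 of 12 cases and fell in 0, with a median log2 fold change of 2.75. The calgranulin S100a8 read 10.63 and 11.20 in arthritic pools 1 and 2 and 7.66 and 6.82 in nonarthritic pools 1 and 2 (3.67 ± 0.30 SE; limma adjusted p = 0.000319). The chemokine receptor Cxcr2 had a fold of 12.4 (limma adjusted p = 7.8e-05), and the lectin Clec4d a log2 fold change of 3.265. Ly6g, the surface marker used to identify mouse neutrophils, read 8.74 and 8.86 in the arthritic and 5.97 and 6.51 in the nonarthritic pools. The 3 not called were Lrg1 (0.25), Cxcr1 (0.415) and G0s2 (-0.035), whose 95% intervals overlap those of the granule genes. No difference between single genes was tested. Without arthritic pool 2 the count of 9 was 2, and without nonarthritic pool 2 it was 6.

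Markers of cells that could carry granule mRNA gave the following values. Of 5 measured myeloid progenitor genes, 1, the cytokine receptor Flt3, which dendritic cells also carry, rose (0.945; limma adjusted p = 0.0106). The stem cell and vessel marker Cd34 was at -0.54 and not called. In this list 0 genes fell, against 1 with quantile normalization again, with the intensity trend and with dim genes left out. The promyelocyte marker Ms4a3 read 6.57 and 6.71 in the arthritic and 6.58 and 6.89 in the nonarthritic pools. Of 6 measured red cell precursor genes, 2 fell (Sptb at -0.92 and Car1 at -0.655, whose signal was below the olfactory receptor 95th percentile), 0 rose, and Epor was at 0.155 and not called. Of 7 measured B cell precursor genes, Ebf1, which stromal and fat cells also express, fell (-0.645) and 0 rose. Of 5 megakaryocyte and platelet genes, Pf4 fell (-0.55) and Ppbp was at -0.29 and not called. The other 6 B cell precursor genes had log2 fold changes from -0.195 (Pax5) to 0.255 (Vpreb1). Of those 6, Pax5 alone had a mean signal above the olfactory receptor 95th percentile. Ms4a3, Fcnb, Klf1, Epb42 and Gp6 were below it as well, and such genes were not shown to be above background. With any single pool left out, and with all probe sets tested, 0 genes of these 4 lists were called. The red cell count of 2 was 1 with median centring, the replicate block or dim genes left out, and 0 with olfactory receptor centring. The single calls of Ebf1 and Pf4 were lost with either centring and with the block, and that of Flt3 with the block. The mean signal of the measured red cell precursor genes was 6.70 and 6.83 in arthritic pools 1 and 2 and 6.96 and 7.13 in nonarthritic pools 1 and 2. In both groups it was higher in pool 2, as were 7 of the 8 granule genes in the arthritic and all 8 in the nonarthritic pools, and as was the olfactory receptor median. The median of pool 2 minus pool 1 over all genes was 0 in the arthritic and -0.03 in the nonarthritic pools. For olfactory receptor genes it was 0.06 and 0.37, so genes of low signal as a group shared this order. The part of marrow cells in the granule signals was not tested.

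Macrophage, monocyte and mast cell genes bear on Chil3 and Ctsg, which such cells can also express. Of 10 macrophage genes, 5 fell and 1, Cd68 (0.69), rose (median log2 fold change -0.88), and Csf1r was at -0.11 and not called. The count of macrophage rises was 2 with median centring, with the intensity trend and with dim genes left out. With single pools left out, 2 to 4 macrophage genes fell and 0 rose, and with all probe sets tested 5 fell and 0 rose. Retnla, which has close copies and like Chil3 responds to interleukin-4 in macrophages, read 5.85 and 4.89 in arthritic pools 1 and 2, against 12.00 and 12.75 in nonarthritic pools 1 and 2. The groups were far apart for Retnla, while those of Chil3 overlapped. The arginase gene Arg1, which also responds to interleukin-4, read 9.29 and 9.89 in the arthritic and 8.84 and 9.76 in the nonarthritic pools without a call. The resident macrophage genes Lyve1 (-2.59) and Vsig4 (-2.065) fell. Of 6 monocyte genes, Mpeg1 (1.91), Plac8 (1.82) and Ccr2 rose, F13a1 (-0.74) fell and Ly6c2 was at -0.16 and not called. With single pools left out, 0 to 2 of these rose and 0 fell, and 2 rose and 0 fell with the block. Among 7 mast cell genes, 4 fell and 0 rose (median -1.005), led by the IgE receptor subunit Ms4a2 (-1.635), Mrgprb2 (-1.37) and Mrgprb1 (-1.12). The mast cell protease gene Mcpt4 was at -0.56 and Ctsg, of the same protease family, at -0.295, and neither was called. With single pools left out, 0 to 2 mast cell genes fell, and 2 did with all probe sets tested or olfactory receptor centring. Of 6 measured eosinophil genes 0 were called (at an unadjusted p under 0.05 in limma, 1, Ccr3 at 0.36; Siglecf was at 0.32).

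Of 8 transcription factors of granulocyte development, 2 rose and 0 fell (median log2 fold change 0.195). Cebpb, which drives emergency granulopoiesis and is also on in macrophages, read 9.28 and 9.96 in arthritic pools 1 and 2 and 8.77 and 8.24 in nonarthritic pools 1 and 2 (1.115 ± 0.26 SE; limma adjusted p = 0.0263). Runx1 had a log2 fold change of 0.765 (limma adjusted p = 0.0149). Cebpe, the factor of specific granule genes, read 7.36 and 7.58 in the arthritic and 7.39 and 7.49 in the nonarthritic pools. It was not called (0.03, 95% interval -0.35 to 0.41), nor was Gfi1, its partner in neutrophil maturation (-0.02, interval -0.44 to 0.40). Spi1, which encodes PU.1, was at 0.43 and not called. The count of 2 was 1 with the replicate block, and 0 with all probe sets tested and with any single pool left out.

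Of 10 measured inhibitors of the granule proteases, 2 rose and 1 fell (median log2 fold change -0.18). Slpi, which blocks elastase and cathepsin G, read 12.16 and 12.11 in arthritic pools 1 and 2, against 9.44 and 8.20 in nonarthritic pools 1 and 2 (fold 9.95; limma adjusted p = 0.000805). A2m, the general protease trap alpha-2-macroglobulin, rose by 1.08, and Serpina1e, of the antitrypsin family, whose near-identical copies make its value uncertain, fell by 0.83 on the log2 scale. The serpin Serpina3n was at -0.315 and not called. With single pools left out 0 to 1 of the inhibitors rose, and the call of Serpina1e was lost there, with the block, with all probe sets tested and with olfactory receptor centring. The mRNAs of targets of these inhibitors, Elane, Prtn3 and Ctsg, had log2 fold changes between -0.295 and 0.235. Elane and Ctsg had mean signals below the olfactory receptor 95th percentile, and the target proteins were not measured.

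Most relatives and chromosomal neighbours of the 8 genes were not called, which does not set them apart, since 15.3% of all genes were called. Of 7 measured relatives, the transferrin-family gene Meltf fell (-1.565 ± 0.17 SE; limma adjusted p = 0.000987), in contrast to Ltf at 0.41, and the chitinase-domain gene Chid1 rose (1.09). The call of Meltf was lost without either arthritic pool, and that of Chid1 without any single pool and with all probe sets tested. Lactoperoxidase, Lpo, which lies next to Mpo on chromosome 11, read 7.06 and 7.38 in the arthritic and 6.94 and 7.31 in the nonarthritic pools and was not called. Beside Ctsg on chromosome 14, the protease gene Mcpt8 was at 0.36 and the granzyme gene Gzmd at 1.895. Gzmd read 7.05 and 4.92 in the arthritic and 4 and 4.18 in the nonarthritic pools (limma adjusted p = 0.0568). Ltf, Ngp and Camp all lie on chromosome 9, and the neighbours Ptpn23 (of Ngp, 0.98) and Ccrl2 (of Ltf, 0.705) rose. On chromosome 10, Plppr3, the neighbour of Prtn3, rose (0.715, limma adjusted p = 0.037). The calls of Ptpn23, Ccrl2 and Plppr3 were not checked under other settings.

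Genes with the most similar pattern over the 4 arrays were sought among the lists. Among 122 other genes of the lists, the smallest Euclidean distances of gene-centred log2 values to the mean of the 4 primary genes were those of Gfi1 (0.08), Cebpe (0.11) and Ms4a3 (0.125). For the mean of the 4 later genes they were Olfm4 (0.31), Arg1 (0.33) and Lcn2 (0.405). That later mean read 5.79 and 6.48 in nonarthritic pools 1 and 2, against 5.64 and 5.95 with Chil3 left out. The pattern thus leans on Chil3, and distances without it were not taken. A distance over 4 arrays is a description of these libraries, and genes of flat signal lie close to each other by this measure.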

How the data were processed

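The authors deposited 1 log2 signal per probe set and array, made with RMA (background correction, normalization between arrays and summary of probes), Affymetrix Power Tools and Affymetrix Expression Console, per the submitters' processing notes. Program versions were not given in the sources used here. A log2 scale was read from the range of 2.89 to 14.27. Of 41345 probe sets, 23521 had 1 gene symbol in the platform table and were kept, and the probe set with the highest mean stood for each of 22180 genes. Arthritic minus nonarthritic differences were fitted with limma 3.58.1 in R 4.3.3 (constant variance prior, no block, 2 residual and 5.98 prior degrees of freedom), adjusted by Benjamini-Hochberg over all genes. The fitting code was tested on simulated data. Errors are the SE from limma unless named otherwise, and the number of arrays limits the precision. Members and lists were chosen with earlier results of these data known. Named genes are all members, and of each other list up to 3 called genes with the largest change and the uncalled gene with the highest signal, neighbours in the same family or called, and the 3 genes nearest to each pattern; genes named beyond these were chosen after their values were seen. Alternatives were other scalings, variance prior, probe set rules, a filter on dim genes, the replicate block and each pool left out. Other list genes without a probe set of their own (such as Fpr1 and Cfd) were not analysed here.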

Additional observations from a re-analysis of the deposited data

How the results depend on the processing

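Between 0 and 1 of the 8 granule genes rose, and 0 fell, under every alternative run, with 2 of the 8 tested where dim genes were left out. The count was 1 with each array centred on its median and with quantile normalization again (Ngp), and 1 with each array centred on its olfactory receptor median (Chil3), a setting added after seeing the data. That last setting moved the median log2 fold change of all genes to 0.28, lowered the count of all falling genes to 561 and raised the share of rises among calls to 78.6%, and median centring moved these to 0.10, 1134 and 67.1%, from 0.005, 1469 and 56.8%. Over all genes, 1933 rose and 1469 fell; when all 41345 probe sets were tested, 685 probe sets rose and 781 fell, among them the probe sets that stand for 549 rising and 537 falling genes. The counts were 1216 and 1027 with the replicate block, and with single pools left out 47 to 637 and 105 to 584. The pool numbers are not said to pair the pools, and the pool differences of the 2 groups correlated at 0.18 over genes; under the block 0 of 8 granule genes were called (smallest adjusted p = 0.0623, for Ngp). Some signs turned: Elane was at 0.0087 with quantile normalization again, 0.175 with olfactory receptor centring and -0.255 to 0.055 with single pools left out (0.005 without nonarthritic pool 2); with single pools left out Mpo was at -0.01 to 0.30 (-0.005 without nonarthritic pool 1) and Chil3 at -0.30 to 1.54. The cause was not tested. The later minus primary difference was 0.505 with quantile normalization again, and 0.27 to 0.72 with single pools left out. The other settings with all 8 genes could not move it from 0.4975. They shift all genes of an array alike, change only the error or the adjustment, or act on genes with several probe sets. Of 252 list counts under alternatives whose main count was above 0, 139 stayed within 1.5 times, 107 were lower and 6 higher; the main counts of 0 could only stay or rise. Leaving out dim genes removed 6 of the 8 granule genes, so no later minus primary value was had there. Signal near background limits 6 of the 8 genes.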
